A study of Mus musculus with 12 samples.

Results

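The clock output transcription factors are the factors through which the circadian clock of a cell passes its rhythm on to other genes, and the 7 genes described here are Dbp, Tef, Hlf, Nfil3, Ciart, Bhlhe40 and Bhlhe41. They were chosen by gene symbol, taking every array probe that the platform annotation assigns to 1 of them. The annotation used here names 9 probes for 6 of the genes (of 19057 genes named in all) and none for Nfil3, which was therefore not analysed here. The tests covered the brighter part of the array, 22640 of 45281 probes, those whose mean exceeded the median probe's. Of the 9 member probes 8 were among them, for 5 genes. The single Bhlhe41 probe lay below that limit and is given as a level only.

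The tissue was cochlea of C57BL6j mice, inbred animals that lose hearing early in life, killed at ages of 4, 15 or 45 weeks. The animals were aged under standard laboratory conditions with no treatment, the vestibular organs were removed, and cochleae were pooled in groups of 5. Pools a and b of each age were each measured on 2 Illumina bead arrays, 12 in all. Replicates are therefore pools (n = 2 per age), and p-values measure the spread between them. Neither the sex of the mice in a pool nor the hour of dissection is given in the sources used here. In pooled whole cochlea, fewer cells of a type and less RNA per cell cannot be told apart. A level below is a log2 value as the authors normalized it, and the median probe of each array stood at 5.89 in a range from 5.10 to 15.00.

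In the mammalian clock, CLOCK and BMAL1 (the product of Arntl) bind E-box sequences and switch on the Per and Cry genes, whose products then shut their own activators down. The same E-boxes drive Dbp and Tef, which with Hlf form the PAR bZIP family of activators, so that their transcripts rise and fall over the day, in phase with each other and opposite to Arntl. NFIL3 competes with this family for the D-box and represses. BHLHE40 and BHLHE41 (DEC1 and DEC2) bind E-boxes themselves as repressors, CIART (also called CHRONO) represses CLOCK and BMAL1, and rhythms of this system have been described in the mouse cochlea.

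The promoter windows of Ciart, Tef and Dbp are shown because the brightest probes of these 3 genes shared their 2 lowest pools. Each window comes from RefSeq (GRCm38.p6) and runs, 5′ to 3′ on the gene's strand, from 250 bases before a transcription start to 50 bases after it. Capitals mark E-boxes, CACGTG. Ciart lies on the minus strand at chr3:95882179-95882478, Tef has a window for each of 2 starts on the plus strand, at chr15:81802423-81802722 and chr15:81811164-81811463, and Dbp lies on the plus strand at chr7:45704997-45705296.
Ciart: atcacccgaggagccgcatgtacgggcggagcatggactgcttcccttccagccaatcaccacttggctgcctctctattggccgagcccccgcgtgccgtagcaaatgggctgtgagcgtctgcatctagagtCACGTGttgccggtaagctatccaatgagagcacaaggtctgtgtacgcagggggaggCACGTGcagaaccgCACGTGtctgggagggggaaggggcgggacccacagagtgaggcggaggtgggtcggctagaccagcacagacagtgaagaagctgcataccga
Tef, upstream start: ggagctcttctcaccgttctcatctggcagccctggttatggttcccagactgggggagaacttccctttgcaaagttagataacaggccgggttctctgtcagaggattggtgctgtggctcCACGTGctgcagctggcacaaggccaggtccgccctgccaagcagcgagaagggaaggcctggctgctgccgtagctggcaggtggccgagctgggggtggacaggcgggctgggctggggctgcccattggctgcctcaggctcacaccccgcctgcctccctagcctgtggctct
Tef, downstream start: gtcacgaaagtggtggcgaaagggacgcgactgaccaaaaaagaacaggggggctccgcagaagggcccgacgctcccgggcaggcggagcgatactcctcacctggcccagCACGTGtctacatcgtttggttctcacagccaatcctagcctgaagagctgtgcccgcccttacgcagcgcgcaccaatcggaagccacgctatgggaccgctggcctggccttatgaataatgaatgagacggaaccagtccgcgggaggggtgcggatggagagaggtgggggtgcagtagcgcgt
Dbp: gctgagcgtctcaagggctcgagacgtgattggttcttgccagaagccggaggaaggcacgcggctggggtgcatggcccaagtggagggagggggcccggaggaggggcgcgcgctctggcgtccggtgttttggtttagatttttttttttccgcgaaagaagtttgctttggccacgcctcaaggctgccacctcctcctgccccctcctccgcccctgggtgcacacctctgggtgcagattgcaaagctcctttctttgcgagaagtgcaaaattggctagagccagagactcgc

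RefSeq gave 7 windows for 6 of the 7 genes, and Bhlhe40 is named only. Both strands of each window were searched for the E-box CACGTG, the weaker E-prime box CACGTT, the D-box TTANGTAA, the ROR element TAGGTCA and the cAMP response element TGACGTCA. None of these letter strings overlapped another in the member windows. The E-box stood in 4 of the 7 windows, against 7.15% of all 32851 windows. Ciart carried it 3 times, with first bases at -116, -58 and -44 from the start, each Tef window once, at -127 and -138, and Bhlhe41 once, at -153. Hlf had a cAMP response element at -9 (1.79% of all windows have one) and Nfil3 a ROR element on the opposite strand at -12 (2.61%). No member window held the E-prime box (4.68% of all windows) or the D-box (2.32%), and the Dbp window held none of the 5 strings. A match is a description of letters, and no match says only that the letters are not in this window.

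Not every array correlated best with the other array of its own pool, which bears on every result that uses the 15-week pools. Over the 22640 tested probes, 8 of the 12 arrays correlated best with the other array of their own pool. The exceptions were the 4 arrays at 15 weeks. In pool a at 15 weeks, the 2 arrays correlated with each other at r = 0.9827, but array 1 reached 0.9861 with array 1 of pool b at 4 weeks and array 2 reached 0.9894 with array 1 of pool a at 4 weeks. In pool b at 15 weeks, the 2 arrays correlated at 0.9836, whereas array 1 reached 0.9862 with array 2 of pool a at 45 weeks and array 2 reached 0.9884 with array 1 of pool a at 4 weeks. These are correlations across probes, and probes are not independent replicates. The r values lay close together, and whether any array is mislabelled was not tested. Single genes differed in this. The muscle gene Tnnc2 stood at 9.76 and 11.62 in the 15-week pools a and b, with gaps of 0.08 and 0.02 between their arrays. Per1 stood at 7.81 and 8.37, with gaps of 0.04 and 0.97. For the members, differences from or to 15 weeks are given below also without 1 of these arrays where that moves them by over 1.5 times, an alternative chosen after the data were seen.

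The pools also differed in what tissue and sex they held. Of 12 cochlear marker genes 9 were tested, with a list mean between 8.88 and 9.07 over the pools, while the hair cell genes Slc26a5 and Pou4f3 and the strial channel gene Kcnq1 lay below the limit for testing. A list of 10 skeletal muscle genes, all tested, had a mean level of 9.29 and 10.2 in pools a and b at 4 weeks, 8.22 and 9.69 at 15 weeks and 8.99 and 10.4 at 45 weeks. Xist, transcribed from the inactive X chromosome, stood at 8.56 and 7.60 in the pools b of 4 and 45 weeks and between 5.85 and 5.95 elsewhere. The Y-linked gene Eif2s3y stood at 5.53 and 5.65 in those 2 pools and between 9.54 and 9.81 elsewhere. Kdm5d, also Y-linked, stood at 5.57 and 5.67 there and between 6.72 and 6.98 elsewhere. No 15-week pool had the high Xist level, so these genes are unbalanced in both comparisons with 15 weeks. A list of 5 pituitary genes had mean levels of 8.59 and 9.07 at 45 weeks and between 5.64 and 6.02 in the younger pools. The 2 arrays of the 15-week pool b differed by 2.08 for Gh and 1.06 for Prl. These gaps were larger than for 99.8% and 99.3% of tested probes in that pool. For Cga, Tshb and Pomc they were 0.31, 0.39 and 0.07. The part of these differences in the results below was not tested.

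**Figure D1:**
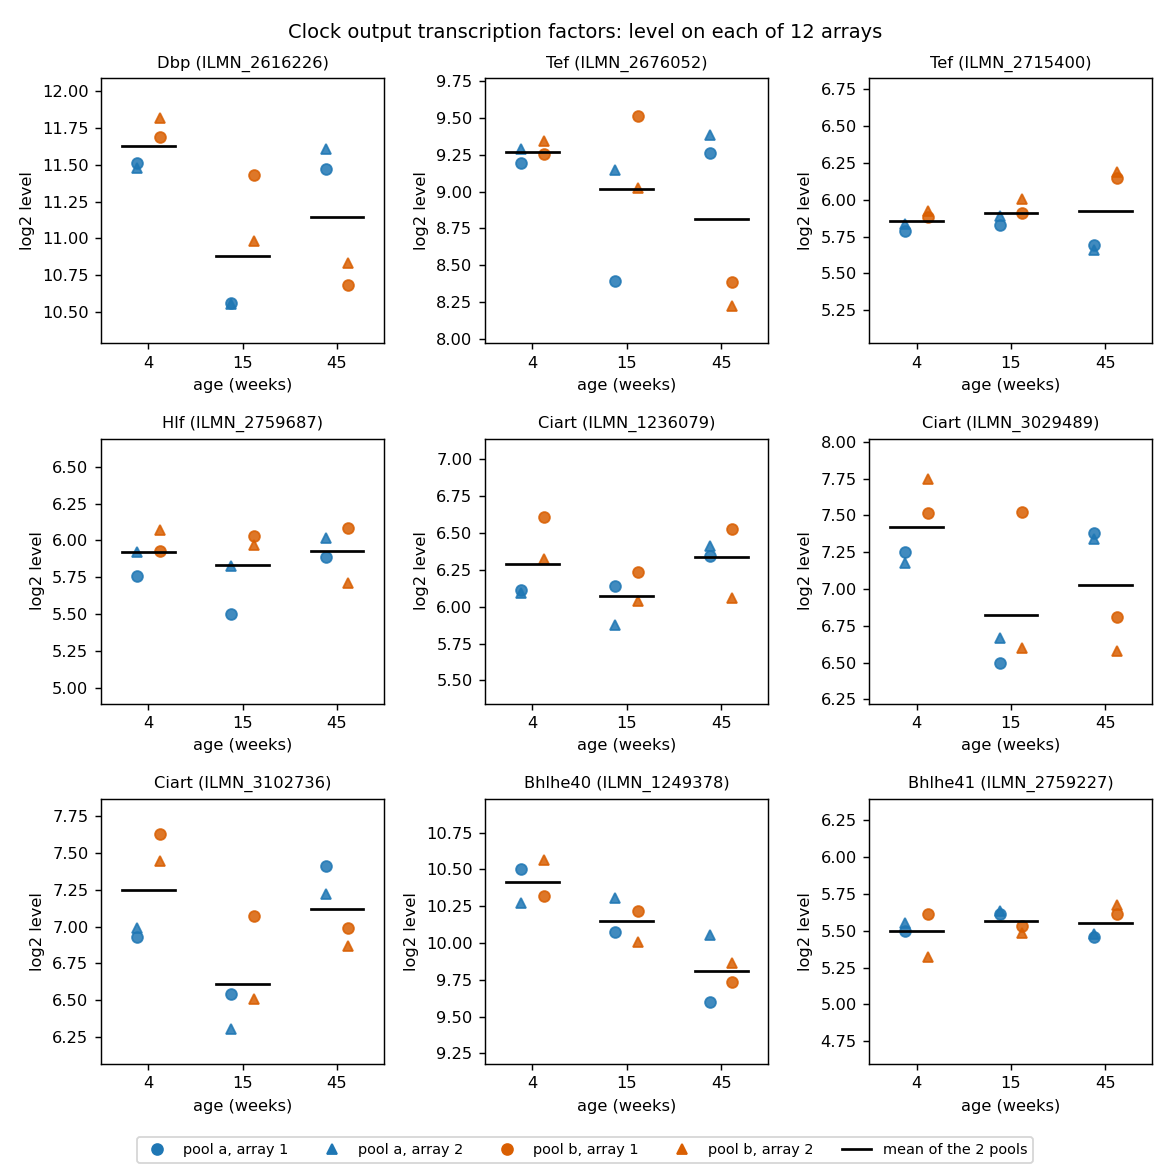
Level of each of the 9 member probes (log2, vertical axis, each panel with its own range) on every array at 4, 15 and 45 weeks (horizontal axis). Circles and triangles are the 2 arrays of a pool, blue is pool a and orange pool b, and the black bar is the mean of the 2 pools. Dbp, the brighter Tef probe and Ciart at ILMN_3029489 have 1 low and 1 higher pool at both 15 and 45 weeks, while Bhlhe40 lies lower at each older age with its pools close together.

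Of the PAR bZIP activators, Dbp was by far the brightest, the brighter of the 2 Tef probes was intermediate, and Hlf sat at the array median. Different probes differ in brightness for the same amount of RNA, so this order says nothing of the amounts of the 3 transcripts. Between 4 and 15 weeks Dbp lay lower in both older pools. By 45 weeks it overlapped the 4-week range in 1 pool and not in the other.

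Dbp (ILMN_2616226) encodes the D-box binding activator that gives the family its best known output, and its gene lies at chr7:45705100-45710203 in GRCm38.p6. At 4 weeks the arrays of pool a read 11.51 and 11.48 and those of pool b 11.69 and 11.82. At 15 weeks pool a gave 10.56 and 10.55 and pool b 11.43 and 10.98, and at 45 weeks pool a gave 11.47 and 11.61 and pool b 10.69 and 10.83. All 4 arrays at 15 weeks lay below all 4 at 4 weeks, whereas at 45 weeks pool a was as high as at 4 weeks and pool b was near pool a at 15 weeks. The means were 11.62 ± 0.18, 10.88 ± 0.46 and 11.15 ± 0.55 in order of age (SD, n = 2). The difference from 4 to 15 weeks was -0.74 (SE 0.30), a ratio of 0.597, and did not pass limma's test (adjusted p = 1.00). Between 15 and 45 weeks Dbp differed by 0.27 (limma adjusted p = 0.821) and from 4 to 45 weeks by -0.48 (limma adjusted p = 0.521).

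Single pools set these Dbp values. The difference from 4 to 15 weeks was -0.42 when pool a, and -1.07 when pool b, of 15 weeks was left out. The difference from 15 to 45 weeks was -0.06 and 0.59 without the 15-week pools a and b, and -0.12 and 0.66 without the 45-week pools a and b. Counting only array 2 of pool b at 15 weeks gave 0.38 for this comparison, and counting only array 1 gave 0.16. From 4 to 45 weeks the value was -0.87 without pool a and -0.09 without pool b at 45 weeks.

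Tef encodes thyrotroph embryonic factor, a second activator of the family, and has probes for 2 transcripts (gene at chr15:81802673-81826863). The brighter probe, ILMN_2676052, at 4 weeks read 9.19 and 9.29 on the arrays of pool a and 9.25 and 9.34 on those of pool b. At 15 weeks pool a gave 8.39 and 9.15 and pool b 9.51 and 9.02, and at 45 weeks pool a gave 9.26 and 9.39 and pool b 8.38 and 8.22. The 4-week arrays lay close together, while the older ages spread widely around them and overlapped them. The low readings were those of array 1 of pool a at 15 weeks and of both arrays of the 45-week pool b. The 2 arrays of pool a at 15 weeks differed by 0.75, more than for 97.1% of tested probes in that pool. The means were 9.27 ± 0.04, 9.02 ± 0.35 and 8.81 ± 0.72 at 4, 15 and 45 weeks (SD, n = 2). From 4 to 45 weeks Tef differed by -0.46 (SE 0.33, limma adjusted p = 0.572), with -0.97 without pool a and 0.05 without pool b at 45 weeks. From 4 to 15 weeks it differed by -0.25 (limma adjusted p = 1.00), with -0.0018 without pool a and -0.50 without pool b at 15 weeks. It was -0.06 and -0.44 without arrays 1 and 2 of the 15-week pool a, and -0.13 without array 2 of the 15-week pool b. Between 15 and 45 weeks it differed by -0.21 (limma adjusted p = 0.880), with -0.72 without pool a and 0.30 without pool b at 45 weeks. The 15-week pools a and b, left out in turn, gave -0.46 and 0.04, arrays 1 and 2 of the 15-week pool a gave -0.39 and -0.0186, and those of the 15-week pool b -0.0835 and -0.33.

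The second Tef probe, ILMN_2715400, stood at the array median and did not follow the first. Its pool means were 5.81 and 5.90 at 4 weeks, 5.86 and 5.96 at 15 weeks and 5.68 and 6.17 at 45 weeks. Pool b at 45 weeks, the lowest pool of the brighter probe, was the highest pool of this one. Its age differences were 0.05, 0.01 and 0.06 for 4 with 15, 15 with 45 and 4 with 45 weeks. Without 1 of the 15-week arrays the first of these ran from 0.0277 to 0.0753 and the second from -0.0108 to 0.0368.

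Hlf encodes hepatic leukemia factor, the third activator of the family (gene at chr11:90336535-90390917). Its probe ILMN_2759687 ran from 5.50 to 6.08 over the 12 arrays, with pool means of 5.84 and 5.998 at 4 weeks, 5.66 and 5.999 at 15 weeks and 5.96 and 5.90 at 45 weeks. The ages overlapped in every pair. The differences were -0.09, 0.09 and 0.01, each with an SE of 0.15. Without array 1 or array 2 of the 15-week pool a the first was -0.0057 or -0.17 and the second 0.0130 or 0.18. So close to the median of the arrays, a change in Hlf could be understated.

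The repressor Ciart was represented by 3 probes (gene at chr3:95878500-95882257), which did not show the same size of difference. The brightest, ILMN_3029489, at 4 weeks read 7.25 and 7.18 on the arrays of pool a and 7.52 and 7.74 on those of pool b. At 15 weeks pool a gave 6.50 and 6.67 and pool b 7.52 and 6.60, and at 45 weeks pool a gave 7.38 and 7.34 and pool b 6.81 and 6.58. As for Dbp, pool a was the low pool at 15 weeks and pool b the low pool at 45 weeks. Array 1 of pool b at 15 weeks read 0.93 above array 2, a gap larger than for 98.9% of tested probes in that pool and larger than the age difference. The means were 7.42 ± 0.30, 6.82 ± 0.34 and 7.03 ± 0.47 at 4, 15 and 45 weeks (SD, n = 2).

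From 4 to 15 weeks the 3 Ciart probes differed by -0.60 (SE 0.27, ILMN_3029489), -0.64 (SE 0.24, ILMN_3102736) and -0.22 (SE 0.15, ILMN_1236079), with a limma adjusted p of 1.00 for each. Both pools at 15 weeks lay below both at 4 weeks for the first 2 of these probes, while for ILMN_1236079 the pools overlapped. The value of ILMN_3029489 was -0.37 with array 1 and -0.83 with array 2 standing for the 15-week pool b, -0.36 once the 15-week pool a was left out and -0.39 once the 4-week pool b was. ILMN_3102736 gave -0.35 without the 4-week pool b and -0.93 without the 4-week pool a. ILMN_1236079 gave -0.03 and -0.40 without the same 2 pools. Between 15 and 45 weeks the 3 probes differed by 0.21, 0.51 and 0.26 (limma adjusted p = 0.848, 0.610 and 0.662). Both 45-week pools lay above both 15-week pools for ILMN_3102736 and ILMN_1236079, and for ILMN_3029489 the ages overlapped. That value of ILMN_3029489 was -0.13 without pool a and 0.54 without pool b at 45 weeks, and -0.0324 and 0.45 without the 15-week pools a and b. It was 0.44 without array 1 and -0.0255 without array 2 of the 15-week pool b, so that a single array turned its direction. That of ILMN_3102736 was 0.32 without the 45-week pool a and 0.33 without the 15-week pool a. From 4 to 45 weeks the differences were -0.39, -0.13 and 0.05, with overlapping pools for all 3. The first of these was -0.73 without pool a and -0.06 without pool b at 45 weeks, and -0.60 and -0.18 without the 4-week pools a and b. The others changed sign without a single pool (ranges in the closing section).

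Bhlhe40 encodes the E-box binding repressor DEC1, which also responds to hypoxia and cytokines, and its gene lies at chr6:108660629-108666925. Its probe ILMN_1249378 at 4 weeks read 10.51 and 10.27 on the arrays of pool a and 10.32 and 10.56 on those of pool b. At 15 weeks pool a gave 10.07 and 10.30 and pool b 10.22 and 10.01, and at 45 weeks pool a gave 9.60 and 10.06 and pool b 9.73 and 9.86. The pool means of each age were close together, at 10.39 and 10.44, then 10.19 and 10.11, then 9.83 and 9.80, and no pool of 1 age overlapped a pool of another. At the level of arrays, all 4 at 45 weeks lay below all 4 at 4 weeks, and the 15-week arrays overlapped both.

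The Bhlhe40 means were 10.41 ± 0.04, 10.15 ± 0.05 and 9.81 ± 0.02 at 4, 15 and 45 weeks (SD, n = 2). The differences were -0.26 (SE 0.11) from 4 to 15 weeks, -0.34 (SE 0.11) from 15 to 45 weeks and -0.60 (SE 0.11) from 4 to 45 weeks, the last a ratio of 0.659. The limma adjusted p was 1.00, 0.606 and 0.271, so that none passed, and 67 of the 22640 probes had a smaller p from 4 to 45 weeks. Over the alternatives listed in the closing section that difference ran from -0.75 to -0.46 and the limma adjusted p from 0.0669 to 0.862. The SD of the pool means leaves out the gap between arrays of 1 pool, which reached 0.46 in pool a at 45 weeks.

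Bhlhe41 encodes the related repressor DEC2 (gene at chr6:145858243-145865420). Its probe ILMN_2759227 lay below the array median on every array, from 5.32 to 5.68. The means were 5.49, 5.57 and 5.56 at 4, 15 and 45 weeks, and since no detection call was used, nothing can be said of its change with age.

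**Figure D2:**
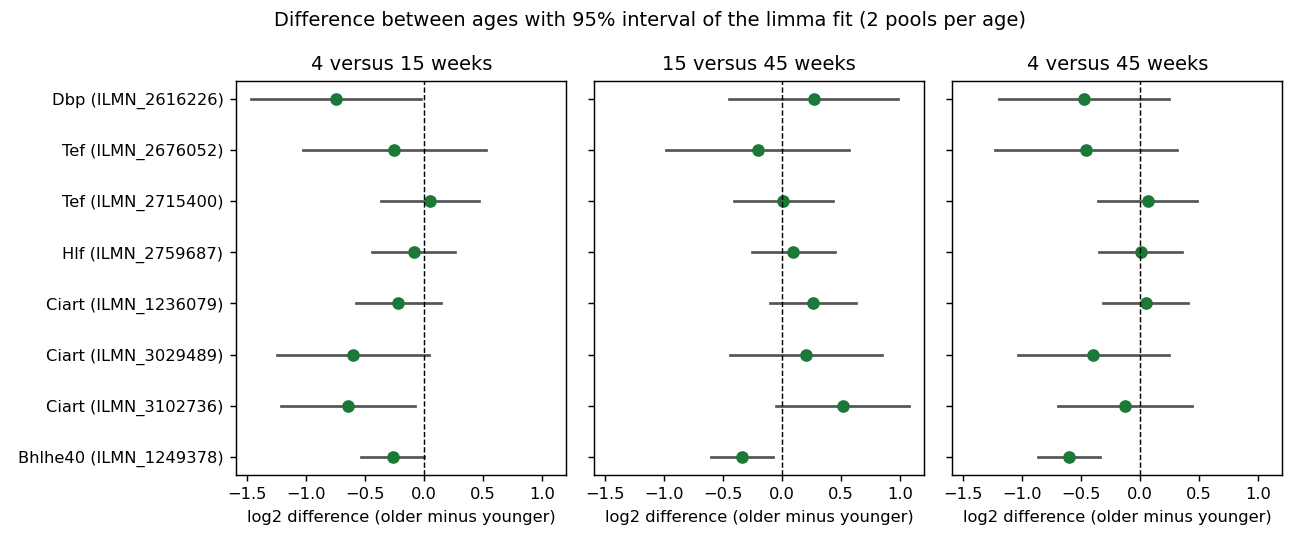
Log2 difference between ages (horizontal axis, older minus younger) for the 8 tested member probes, with the 95% interval of the limma fit as a line. Every interval was computed from 2 pools per age with a spread shared over all 6 pools and is not adjusted for the number of probes. Bhlhe40 lies below 0 in all 3 comparisons, and Dbp and the 3 Ciart probes have their lowest values in the comparison of 4 with 15 weeks.

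Across the 8 tested probes, limma called 0 between 4 and 15 weeks, 0 between 15 and 45 weeks and 0 between 4 and 45 weeks at an adjusted p under 0.05, as for all probes (0% called in each). With an unadjusted p under 0.05, 3 of the 8 were lower at 15 than at 4 weeks (Dbp, Ciart at ILMN_3102736 and Bhlhe40), against 0.667% of all tested probes. Bhlhe40 was the 1 probe lower with that p from 15 to 45 weeks, against 4.14%, and from 4 to 45 weeks, against 7.21%. The probes of 1 gene share a transcript and these comparisons share their pools, so neither the probes nor the comparisons are separate pieces of evidence.

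Both pools at 15 weeks lay below both at 4 weeks for 4 of the 8 probes (Dbp, 2 of Ciart and Bhlhe40), against 13.6% of all tested probes. From 15 to 45 weeks both older pools were lower for 1 probe (Bhlhe40, against 19.9%) and higher for 2 (Ciart, against 19.8%), and from 4 to 45 weeks lower for 1 (Bhlhe40, against 22.5%). At the level of single arrays, all 4 older arrays lay below all 4 younger for Dbp from 4 to 15 weeks (1.74% of all probes), for none of the 8 from 15 to 45 weeks (4.58%) and for Bhlhe40 from 4 to 45 weeks (8.06%). With 2 pools against 2, an exact two-sided permutation test cannot go below p = 0.333. Taking the brightest probe of each of the 5 tested genes, the median difference was -0.26 from 4 to 15 weeks with 5 of 5 genes lower, 0.09 from 15 to 45 weeks with 3 higher and 2 lower, and -0.46 from 4 to 45 weeks with 4 of 5 lower. The median over all tested probes was -0.0020, -0.0030 and -0.0036. Of all tested probes, 49.3%, 49.4% and 49.3% were higher at the older age, and these shares also stand beside the list counts below.

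Gaps between the 2 arrays of a pool were as large as many of these differences. For 5 of the 8 probes the largest gap within a pool exceeded the difference from 4 to 15 weeks, as for 93.2% of all tested probes. This held for 8 of 8 from 15 to 45 weeks (85.6% of all) and for 3 of 8 from 4 to 45 weeks (72.1%). Dbp, Bhlhe40 and Ciart at ILMN_3102736 were the probes whose difference from 4 to 15 weeks exceeded every gap in the 4 pools compared. The largest gap of each probe was 0.45 for Dbp, 0.75 and 0.0952 for the Tef probes, 0.37 for Hlf, 0.93, 0.57 and 0.47 for the Ciart probes and 0.46 for Bhlhe40.

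In pool b at 15 weeks the gaps ran in 1 direction. Array 1 read higher than array 2 for 7 of the 8 member probes, with a median difference of 0.33, against 49.4% of all tested probes. In the other 5 pools array 1 was the higher for 2 to 5 of the 8. Per1 read 8.85 and 7.89 and Per2 read 8.69 and 7.75 on the same 2 arrays. For Per1, Per2, Tef and the brightest Ciart probe, array 2 of pool b lay nearer to the mean of pool a at that age than to its own partner. Dbp and Bhlhe40 were also nearer to pool a, but only slightly. Their distances to pool a and to the partner were 0.42 and 0.45 for Dbp and 0.18 and 0.21 for Bhlhe40. The share of all tested probes that did so was not computed.

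**Figure D3:**
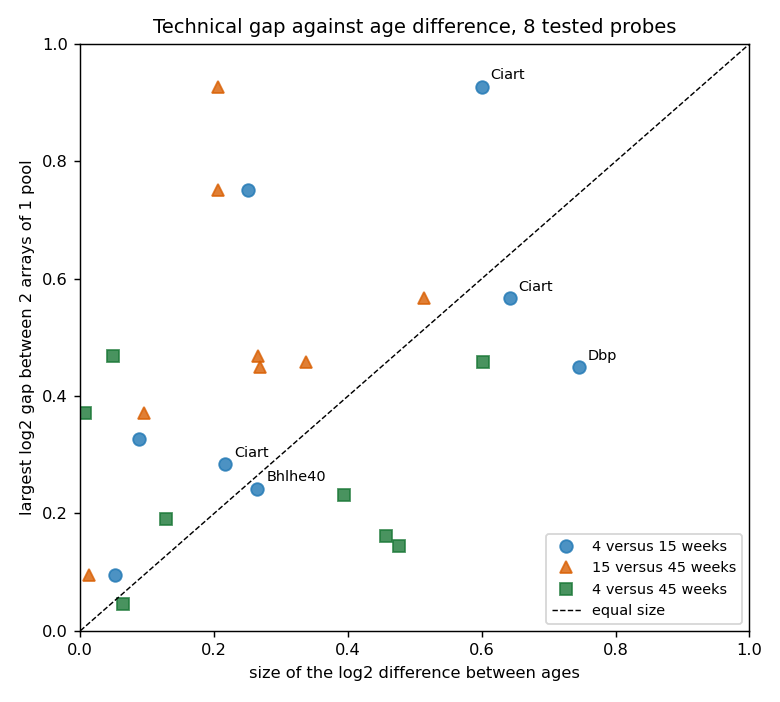
Size of the log2 difference between ages (horizontal axis) against the largest gap between the 2 arrays of any pool in that comparison (vertical axis, log2), for the 8 tested member probes in 3 comparisons. Names mark points of the comparison of 4 with 15 weeks. Points above the dashed line, 5, 8 and 3 of 8 in the 3 comparisons, have a gap larger than the age difference.

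The pools that were low for Dbp were also low for the Per genes, the negative limb of the clock. Per2 lay at 8.53 and 8.78 at 4 weeks, 7.67 and 8.22 at 15 weeks and 8.63 and 7.33 at 45 weeks, with its lowest values in pool a at 15 and pool b at 45 weeks, as for the brightest probes of Dbp, Tef and Ciart. The other Tef probe was highest in pool b at 45 weeks, and the other Ciart probes were lowest in pool a at 15 weeks with pool b at 15 weeks (ILMN_3102736) or pool a at 4 weeks (ILMN_1236079) next. Per1 lay at 8.39 and 8.95, 7.81 and 8.37, and 8.57 and 8.22 in the same order. Nr1d2 had the same 2 lowest pools, at 9.13 and 9.15, 8.81 and 9.16, and 9.06 and 8.60. Nr1d1 and the clock target gene Usp2 did not. Nr1d1 lay at 6.60 and 7.13, 6.57 and 6.56, and 6.70 and 7.04 in that order. Usp2 lay at 8.73 and 9.41, 8.68 and 8.70, and 8.78 and 9.16. In both, pool b at 45 weeks lay above every pool but pool b at 4 weeks. Bhlhe40 did not share the Dbp pattern either, since its 2 pools lay within 0.08 of each other at each age.

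**Figure D4:**
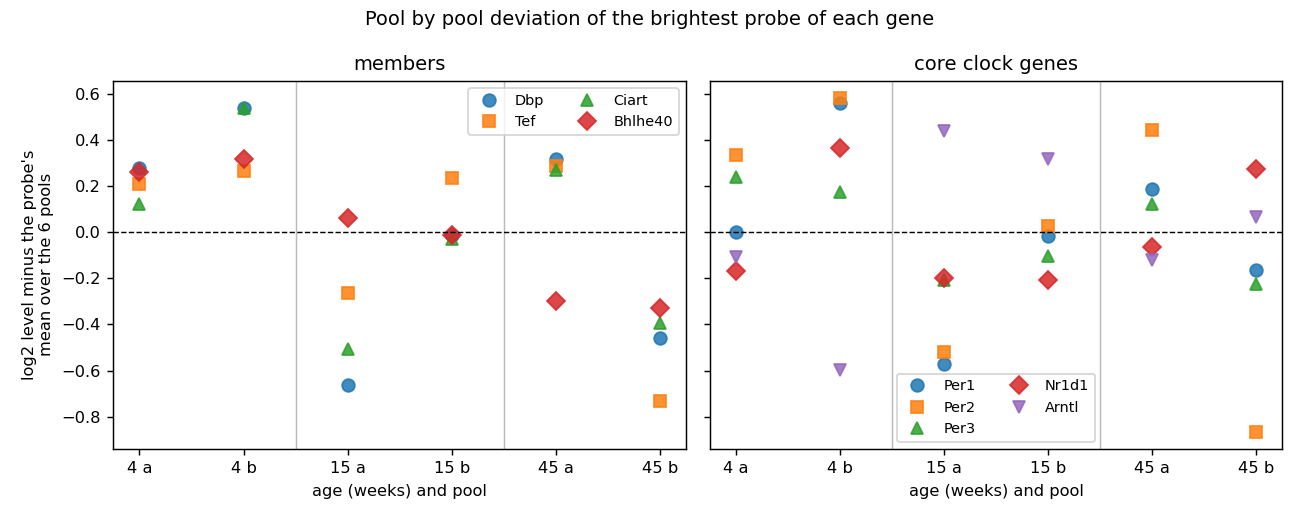
Log2 level of the brightest probe of each gene minus its mean over the 6 pools (vertical axis) in each pool (horizontal axis, age in weeks and pool letter), for Dbp, Tef, Ciart and Bhlhe40 on the left and 5 core clock genes on the right. Pool a at 15 weeks and pool b at 45 weeks are the 2 lowest pools of Dbp, Tef, Ciart (brightest probe of each) and Per2, and Arntl is highest in the 2 pools at 15 weeks.

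Of 17 core clock genes 12 had a tested probe, and none passed in any comparison. From 4 to 15 weeks 3 of the 12 were higher and 9 lower, with a median of -0.13, and 2 had an unadjusted p under 0.05. Arntl, which encodes the activator BMAL1, differed by 0.73 (SE 0.18, limma adjusted p = 1.00), with pool means of 7.65 and 7.16 at 4 weeks and 8.19 and 8.07 at 15 weeks. The difference was 0.49 without pool b at 4 weeks. Arntl thus lay higher at 15 weeks in both pools while Dbp lay lower, and at 45 weeks it lay at 7.64 and 7.82. Per3 differed by -0.36 (SE 0.15, limma adjusted p = 1.00). From 15 to 45 weeks 4 were higher and 8 lower (median -0.07), and from 4 to 45 weeks 2 were higher and 10 lower (median -0.25). Clock, the partner of BMAL1, was the gene with an unadjusted p under 0.05 in each of these, at -0.35 (SE 0.13, limma adjusted p = 0.606) and -0.44 (SE 0.13, limma adjusted p = 0.279).

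Among 12 genes known in mouse liver or other tissues as targets of the clock or of the PAR bZIP factors, 8 had a tested probe and none passed. All 8 were lower at 15 than at 4 weeks (median -0.22) and all 8 lower at 45 than at 4 weeks (median -0.27). From 15 to 45 weeks 3 were higher and 5 lower (median -0.05). The genes of a list share their pools and are not separate pieces of evidence. Cyp2a5, a cytochrome P450 gene controlled by these factors in mouse liver, had pool means of 8.22 and 8.42 at 4 weeks, 7.44 and 7.46 at 15 weeks and 7.66 and 7.29 at 45 weeks. Every older pool lay below both 4-week pools, with differences of -0.87 (SE 0.16, limma adjusted p = 1.00) and -0.84 (SE 0.16, limma adjusted p = 0.271) from 4 weeks. Its readings were 7.89 and 7.02 on the 2 arrays of the 15-week pool b.

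A list of 5 airway epithelium genes, which shares no gene with these targets, had mean levels of 7.75 and 8.46 at 4 weeks, 7.12 and 6.95 at 15 weeks and 7.40 and 7.49 at 45 weeks, so that its older pools also lay lowest. Its part in the Cyp2a5 values was not tested. Alas1, the first enzyme of heme synthesis, lay at 11.87 and 11.84, 11.80 and 11.53, and 11.39 and 11.31 at 4, 15 and 45 weeks. It differed by -0.32 (SE 0.13, limma adjusted p = 0.606) from 15 to 45 weeks, or -0.18 without the 15-week pool a, and by -0.51 (SE 0.13, limma adjusted p = 0.271) from 4 to 45 weeks. Nampt, which makes a precursor of NAD, and the cell cycle kinase gene Wee1 differed by -0.47 and -0.33 from 4 to 45 weeks (limma adjusted p = 0.293 and 0.311), and Nampt by -0.29 without the 4-week pool b.

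Glucocorticoids also act on clock genes, and 8 glucocorticoid-responsive genes, all tested, were read beside the members. None passed, and 7 of 8 were lower at the older age in each comparison, with medians of -0.15, -0.03 and -0.18 for 4 with 15, 15 with 45 and 4 with 45 weeks. From 4 to 45 weeks Klf9 differed by -0.43, Zbtb16 by -0.33 and Errfi1 by -0.30, and the cell cycle inhibitor gene Cdkn1a by 0.49, each with an unadjusted p under 0.05 and a limma adjusted p between 0.312 and 0.339. Klf9 was -0.27 without the 45-week pool a, and Cdkn1a was 0.75 and 0.23 without the 45-week pools a and b. From 4 to 15 weeks the largest differences were those of Cdkn1a (0.24), Klf9 (-0.21), Fkbp5 (-0.19) and Errfi1 (-0.16), and from 15 to 45 weeks those of Zbtb16 (-0.26), Cdkn1a (0.24), Klf9 (-0.22) and Errfi1 (-0.14). Leaving out a pool or a 15-week array moved several of these by over 1.5 times, as far as 0.0943 for Cdkn1a, -0.0892 for Klf9 and 0.14 for Fkbp5 from 4 to 15 weeks, and -0.0195 for Cdkn1a, -0.0566 for Klf9 and -0.0804 for Errfi1 from 15 to 45 weeks. For Klf9, itself a clock output gene, the pools were 11.33 and 11.08 at 4 weeks, 10.96 and 11.03 at 15 weeks and 10.61 and 10.94 at 45 weeks. Tsc22d3, a classic glucocorticoid target named after its values were seen, lay at 10.88 and 11.03, 10.48 and 11.12, and 11.23 and 10.35 in the same order. Its 2 lowest pools were those of Dbp, as for Sgk1 and Dusp1 but not for Fkbp5, Zbtb16, Klf9, Errfi1 or Cdkn1a. The Tsc22d3 arrays in the 15-week pool b read 11.61 and 10.62.

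Of 5906 named probes that varied over the pools (SD of at least 0.2), 18 had a Pearson r above 0.9 with Dbp over the 6 pool means. The 5 genes with the highest r were Rad54b (0.984), Mmd2 (0.978), Naip5 (0.972), Smpdl3b (0.961) and Chaf1a (0.958). Over the 12 single arrays the same genes had r between 0.833 and 0.938. These values describe 6 points that share their arrays, and after a search over so many probes they carry no p. No such search could be made for Nfil3.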

How the data were processed

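Per the labels, biotin-labelled cRNA from total RNA of 6 cochlear pools was hybridised to 12 bead arrays. The deposited values are log2 levels that the authors had normalized between arrays: once sorted, all 12 columns hold identical values (largest difference 0), which hides any shift shared by most transcripts. No source used here names the background correction or the software. A second table has 12 value and 12 detection columns that match no label, and none was used. By the annotation 34885 probes have 1 symbol, 18 have several and 10378 have none. Gene and promoter positions are those of RefSeq GRCm38.p6, not of the array's own design.

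The 2 arrays of a pool were averaged. Probes whose mean exceeded the median (5.87) were fitted in R 4.3.3 by limma 3.58.1, using lmFit and contrasts.fit, then eBayes (3.84 prior and 3 residual degrees of freedom). Differences are older minus younger. Benjamini-Hochberg adjustment ran over all 22640 probes of a comparison, with calls at adjusted values under 0.05. Probes of 1 gene were tested separately, and the brightest stood for a gene in lists. Members, lists and tests were chosen with earlier results of these data known. All member probes are named. From each list the genes with an unadjusted p under 0.05 are named, or otherwise the 4 with the largest difference. Per1, Per2, Nr1d1, Nr1d2, Usp2 and Tsc22d3 are named too for their pool values, and Sgk1 and Dusp1 for their lowest pools. For similarity, the 5 genes with the highest r with Dbp are also named. The replicate letters were not taken to pair the pools, since the labels do not say so. The differences of pool a minus pool b correlated at -0.112, 0.183 and -0.388 between ages. The skeletal muscle list, however, had the higher mean in pool b at each age. Whether pools of 1 letter were handled together was not tested.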

Additional observations from a re-analysis of the deposited data

How the results depend on the processing

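None of the 8 tested member probes, and no list gene in a comparison where the naming rule picked it, passed at an adjusted p under 0.05 in limma in the alternatives run (smallest 0.0669, for Bhlhe40 and Cyp2a5 from 4 to 45 weeks when the pool was a random block). Across the 22640 probes, 0 were called in each comparison, with 302, 1845 and 3137 at an unadjusted p under 0.05 for 4 with 15, 15 with 45 and 4 with 45 weeks. Fitting 12 arrays with pool as random block (correlation 0.296) called 2, 6 and 183 probes. That fit uses 1 correlation for all probes and lets technical arrays count in part as replicates, which the fit of pool means does not. From 15 to 45 and from 4 to 45 weeks, array 2 of each pool alone called 1 and 1, and a trended robust eBayes 2 and 2. In these comparisons, normexp (offset 16) with quantile normalization, run on the deposited values that were already normalized, called 2 and 1. Only the pools of 4 and 45 weeks gave 1. Leaving out 1 pool or 1 array at 15 weeks gave 0 calls from 4 to 15 weeks and 0 to 12 in each of the others, with 12 without pool b at 45 weeks. Testing every probe, testing those above the 75th percentile (7.12), cyclic loess of the deposited values and the replicate block called 0. The replicate block left the Bhlhe40 difference from 4 to 45 weeks at -0.60 (limma adjusted p = 0.312).

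Directions of the members reversed in 1 of 149, 15 of 149 and 8 of 117 alternative values in the 3 comparisons. With array 2 alone, Tef at ILMN_2715400 was -0.0238 and Hlf -0.0321 from 15 to 45 weeks, and Hlf -0.13 from 4 to 45 weeks. With the Xist level as a covariate, Tef at ILMN_2715400 was -0.0747 from 15 to 45 and Fkbp5 0.0188 from 4 to 15 weeks. Leaving out a pool or array gave these ranges from 4 to 15 weeks: -0.25 to 0.0797 for Hlf and -0.53 to 0.14 for Fkbp5. From 15 to 45 weeks they were -0.12 to 0.66 for Dbp, -0.72 to 0.30 for Tef at ILMN_2676052, -0.23 to 0.26 for Tef at ILMN_2715400, -0.0723 to 0.26 for Hlf, -0.13 to 0.54 for Ciart at ILMN_3029489 and -0.0195 to 0.50 for Cdkn1a. From 4 to 45 weeks they were -0.97 to 0.0524 for Tef at ILMN_2676052, -0.18 to 0.31 for Tef at ILMN_2715400, -0.0720 to 0.0867 for Hlf, -0.13 to 0.23 for Ciart at ILMN_1236079 and -0.42 to 0.16 for Ciart at ILMN_3102736. The cause of these changes was not tested. No slide block was run, since no slide is named, and a start from the unmatched table was not run. The 2 pools per age limit every value, and for Hlf, Bhlhe41 and the dimmer Tef probe so does a signal near the array median.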
